A study of Homo sapiens with 18 samples.

Results

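The nuclear genes of the respiratory chain and ATP synthase are described here, complex by complex, in breast cancer cells labelled HCC1937 and treated with the PARPi olaparib. Members were all protein-coding genes of the deposited count table whose symbol begins with NDUFA, NDUFB, NDUFC, NDUFS, NDUFV, SDHA to SDHD, UQCR, COX4 to COX8 or ATP5. This gave 98 of 35044 genes, of which 45 belonged to complex I, 8 to complex II, 9 to complex III, 16 to complex IV and 20 to complex V. The prefixes took 77 structural subunits, 12 assembly factors (NDUFAF and SDHAF symbols) and 9 other genes, such as isoforms of other tissues and the ATP synthase inhibitor. NDUFA4 and NDUFA4L2 were placed with complex IV, where the NDUFA4 protein is found, in spite of their symbols. COX4I2, COX6A2, COX7B2 and NDUFC2-KCTD14 were not analysed here.

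Complexes I to IV pass electrons from NADH and succinate to oxygen. Complexes I, III and IV pump protons out of the mitochondrial matrix as they do so, complex II does not pump and is also an enzyme of the citric acid cycle, and complex V lets protons flow back to make ATP. Complexes I, III, IV and V combine nuclear subunits with a few that mitochondrial DNA encodes, whereas complex II is nuclear throughout. Many nuclear subunit genes are controlled by the general factors NRF1, GABPA (an ETS protein) and YY1.

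RNA-seq was made from libraries labelled HCC1937-EV, described as HCC1937 cells with an empty vector, and HCC1937-OE-BRCA1, described as the same cell line with BRCA1 overexpressed. The epithelial markers and BRCA1 levels given after the promoters do not bear out that the 2 sets of libraries differ by BRCA1 alone, and whether both are HCC1937 was not tested, so the names are used here as labels and every value between the lines is a difference between 2 labelled sets. HCC1937 is an established line from a breast carcinoma with mutated BRCA1. Both were sequenced at 0 h and under 10 µmol/L of olaparib, an inhibitor of PARP1 and PARP2, at 12 h and 24 h, with 3 libraries in each of 6 conditions. The labels list olaparib also for the 0 h libraries and call HCC1937-EV WT in genotype, whereas the study describes the 0 h cells as untreated and the line as BRCA1-mutated. Nothing in the labels says that the 3 libraries of a condition came from separate cultures, so p-values measure only the spread between these libraries. Whether HCC1937-OE-BRCA1 is 1 clone is not stated.

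Promoters of RefSeq (GRCh38.p14, from 250 bases before to 50 after a gene's start) were found for 79 of the 98 members, 97 promoters in all. Letters of 3 known motifs were searched on both strands, namely GCGC, any base, T and GCGC for NRF1, CCGGAAG for ETS proteins and AAGATGGCG for YY1. NRF1 letters stood in 20.6% of the member promoters against 5.78% of all 35116 promoters, ETS letters in 27.8% against 10.3%, and YY1 letters in 12.4% against 1.75%. One or more of them stood in 49.5% of member promoters and in 16.1% of all promoters. ETS and YY1 letters can overlap, which happened in 5 of all promoters and in 0 of the member promoters. One gene of each complex that the comparisons turn on, and a second one of complex IV, are shown to let their promoters be compared. Each run holds the 200 bases before the start on the gene's strand, with motif letters in capitals. NDUFA1 lies at chrX:119871632-119871831 (plus strand), SDHA at chr5:218120-218319 (plus), UQCR11 at chr19:1605463-1605662 (minus), COX8A at chr11:63974420-63974619 (plus), COX7C at chr5:86617741-86617940 (plus) and ATP5ME at chr4:674277-674476 (minus).
NDUFA1: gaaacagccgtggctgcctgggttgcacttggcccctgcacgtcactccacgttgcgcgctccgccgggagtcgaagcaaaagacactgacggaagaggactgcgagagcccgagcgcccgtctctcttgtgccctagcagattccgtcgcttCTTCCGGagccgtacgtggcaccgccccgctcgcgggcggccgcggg
SDHA: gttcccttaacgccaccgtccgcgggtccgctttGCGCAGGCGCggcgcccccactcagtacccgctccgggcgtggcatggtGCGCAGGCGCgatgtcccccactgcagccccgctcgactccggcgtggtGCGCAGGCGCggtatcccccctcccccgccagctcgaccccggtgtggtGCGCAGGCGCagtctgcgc
UQCR11: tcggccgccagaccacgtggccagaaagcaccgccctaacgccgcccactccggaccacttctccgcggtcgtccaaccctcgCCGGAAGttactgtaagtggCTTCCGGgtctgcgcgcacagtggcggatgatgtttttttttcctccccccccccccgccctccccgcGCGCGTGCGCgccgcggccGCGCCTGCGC
COX8A: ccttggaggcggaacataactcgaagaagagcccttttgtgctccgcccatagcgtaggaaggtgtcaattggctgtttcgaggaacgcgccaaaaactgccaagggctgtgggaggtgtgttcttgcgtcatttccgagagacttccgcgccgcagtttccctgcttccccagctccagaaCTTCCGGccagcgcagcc
COX7C: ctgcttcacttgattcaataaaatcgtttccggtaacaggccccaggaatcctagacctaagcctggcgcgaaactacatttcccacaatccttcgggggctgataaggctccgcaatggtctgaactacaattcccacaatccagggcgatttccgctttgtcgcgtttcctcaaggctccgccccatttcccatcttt
ATP5ME: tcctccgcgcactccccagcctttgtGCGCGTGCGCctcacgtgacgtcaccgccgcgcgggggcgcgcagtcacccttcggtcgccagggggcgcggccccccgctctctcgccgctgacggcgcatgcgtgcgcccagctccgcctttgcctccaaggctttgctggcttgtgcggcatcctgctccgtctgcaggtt
The SDHA stretch held the NRF1 letters in 4 places and UQCR11 held them in 2 places beside ETS letters in 2. NDUFA1 and COX8A held 1 ETS match each, ATP5ME held NRF1 letters in 1 place of the stretch shown and ETS letters outside it, and COX7C held none of the 3 motifs. A match is a description of letters and does not show that a factor binds there.

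Total counts per library lay between 15081973 and 17571922, and the members took between 0.697% and 1.34% of them. BRCA1 was at 126, 111 and 117 CPM in untreated HCC1937-EV and 166, 122 and 127 CPM in untreated HCC1937-OE-BRCA1, overlapping ranges with a log2 difference of 0.24 ± 0.11 (SE, edgeR adjusted p = 0.0654). At 24 h it was at 90.9, 93.1 and 99.5 CPM and 155, 159 and 169 CPM, a log2 difference of 0.77 ± 0.11 (SE, edgeR adjusted p = 3.17e-06). The epithelial keratins KRT8 and KRT18 were high in all libraries, but the basal keratin KRT5 lay between 0 and 0.124 CPM in the 9 libraries labelled HCC1937-EV and between 1062 and 1742 CPM in the 9 labelled HCC1937-OE-BRCA1. EPCAM, an epithelial adhesion protein, was at 0 in 8 of the 9 HCC1937-EV libraries and between 252 and 352 CPM in HCC1937-OE-BRCA1, and CDH1 (E-cadherin) lay between 0.313 and 1.2 CPM against 329 to 488 CPM. The 7 epithelial markers summed to 2424 to 3171 CPM in HCC1937-EV and 6299 to 10267 CPM in HCC1937-OE-BRCA1, and the 10 leukocyte, endothelial and fibroblast markers to 92.5 to 148.3 and 26.5 to 37.9 CPM. Of the latter, COL1A1 made up most of the sum in HCC1937-EV (89.0 to 143.5 CPM), while others were higher in HCC1937-OE-BRCA1, with PECAM1 at 0.740 to 2.65 CPM against 9.92 to 20.7 CPM, CDH5 at 0 to 0.192 against 4.54 to 8.35 CPM, and PTPRC at 0 in all 9 libraries against 0.431 to 2.22 CPM. Of the 6 tested between the untreated lines, 4 were higher and 2 lower in HCC1937-OE-BRCA1, and 72.7% of all genes were called there. The part of these differences in the results was not tested, and BRCA1 expression and any other difference between the lines cannot be told apart.

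GC content was linked to gene levels to an uneven extent among libraries. Spearman's rho, over 12295 genes, of GC content with the departure of a library from its line's average ran from -0.605 to -0.239 in untreated HCC1937-EV and from 0.295 to 0.638 at 24 h. It spread from -0.614 to 0.666 among the 12 h libraries of HCC1937-EV and from -0.626 to 0.594 among the untreated ones of HCC1937-OE-BRCA1, so these conditions held libraries that stood apart. Members had a median GC content of 47.5% against 48.7% for all genes tested and a median exonic length of 2462 against 4169 bases. In bulk RNA, fewer cells that express a gene and less RNA per cell cannot be told apart.

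Of the 98 members, 95 had enough counts to be tested. COX8C, ATP5MGL and ATP5MF-PTCD1 did not, with a mean of COX8C over the 18 libraries of 0.0134 RPKM. Per length of transcript, the highest mean level over the 18 libraries was that of ATP5F1B, the catalytic beta subunit of ATP synthase, at 555 RPKM, followed by NDUFS5 of complex I at 367, NDUFB7 at 189 and COX8A at 177 RPKM. Structural subunits at the other end were NDUFV2 (0.399 RPKM) and NDUFA7 (0.696 RPKM), with 314 and 286 counts over all 18 libraries. Both share over 28% of their exonic bases with another annotated gene on the same strand, where a counter may discard reads, so their levels are uncertain.

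Summed over the subunits of a complex, transcripts stood higher in every complex at 24 h than at 0 h in HCC1937-EV, whereas in HCC1937-OE-BRCA1 they did not. Complex I went from 2170 ± 31.1 CPM (SD, n = 3) through 2792 ± 394 at 12 h to 3055 ± 332 at 24 h in HCC1937-EV and from 2645 ± 487 through 2462 ± 264 to 2200 ± 141 CPM in HCC1937-OE-BRCA1. Complex II went from 289 ± 9.87 to 337 ± 26.2 CPM and from 319 ± 33.7 to 303 ± 11 CPM. Complex III went from 1111 ± 70.0 to 1507 ± 156 CPM and from 1213 ± 183 to 1013 ± 56.6 CPM.
The 3 libraries of HCC1937-EV at 24 h lay above the 3 at 0 h in each of these complexes, while those of HCC1937-OE-BRCA1 overlapped in complexes I and II and did not overlap in complex III. Complex IV stood at 1435 ± 109, 1783 ± 284 and 2068 ± 243 CPM at 0, 12 and 24 h in HCC1937-EV, and at 1592 ± 335, 1540 ± 156 and 1330 ± 95.5 CPM in HCC1937-OE-BRCA1. Complex V stood apart between the lines, with 4152 ± 89.2 CPM in untreated HCC1937-EV against 2374 ± 357 CPM in untreated HCC1937-OE-BRCA1, and 5258 ± 444 against 2035 ± 72.8 CPM at 24 h. The lowest HCC1937-EV library, at 4049 CPM, lay above the highest HCC1937-OE-BRCA1 library, at 2760 CPM.

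**Figure D1:**
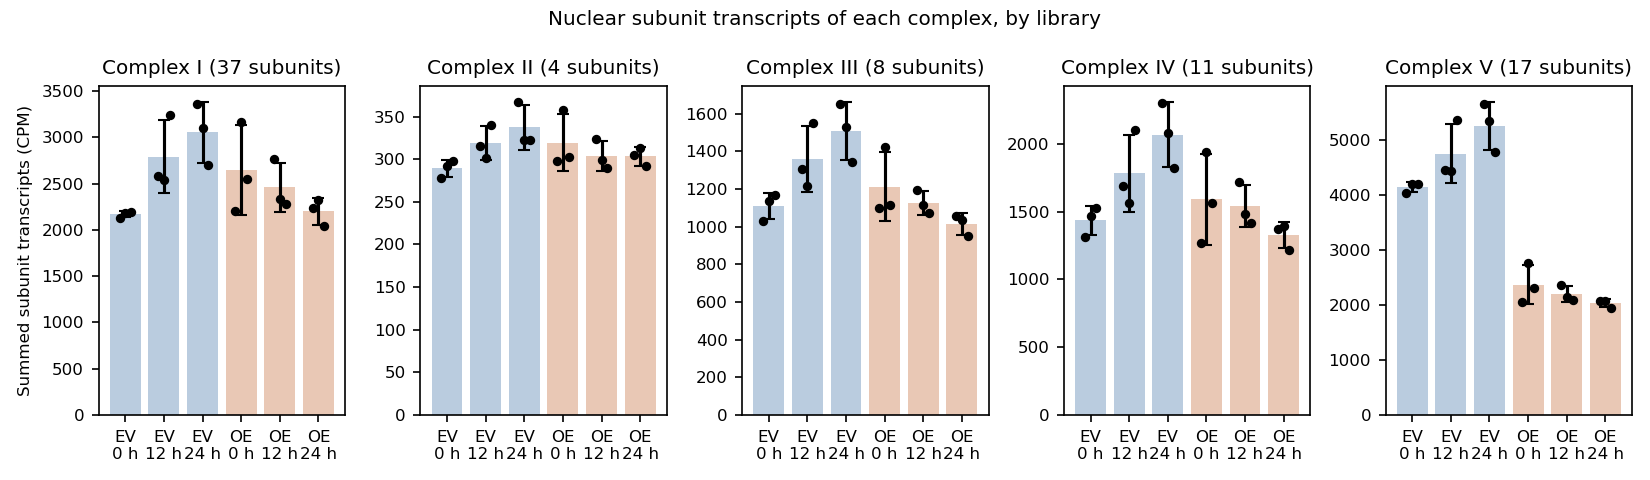
Summed level (CPM, linear axis from 0) of the nuclear subunits of each complex in the 6 conditions, with 1 point per library, bars at the mean of 3 and error bars of 1 SD. All 9 HCC1937-EV libraries lie above all 9 HCC1937-OE-BRCA1 libraries in complex V, from 4049 CPM against 2760 CPM at most, but not in the other complexes.

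After 24 h of olaparib, 47 of the 95 members tested had risen in HCC1937-EV and 0 had fallen. Across all 18335 genes tested 8.62% were called higher and 5.12% lower, at a Benjamini-Hochberg adjusted p under 0.05 in edgeR's quasi-likelihood test. The median log2 fold change of the members was 0.41, against 0.00 for all genes, and 81 of the 95 were above 0. In 58 members all 3 treated libraries lay above all 3 untreated ones, a pattern found in 20.8% of genes tested. The called members were 21 of 45 in complex I, 4 of 8 in complex II, 5 of 9 in complex III, 8 of 15 in complex IV and 9 of 18 in complex V, with medians of 0.44, 0.35, 0.38, 0.52 and 0.41. Log2 fold changes followed GC content across genes (Spearman's rho 0.577 over 12295 genes, and 0.247 over the 95 members) and ran against exonic length (rho -0.351 and -0.33). The leukocyte, endothelial and fibroblast markers summed to 92.5 to 110.9 CPM at 0 h and 131.9 to 148.3 CPM at 24 h, without overlap (1 of 6 tested called higher), and their part in the result was not tested. With the correction for GC content and length, 45 members were called, 36 of them also called without it, and the median was 0.36. Of all genes, 7.18% were called higher and 7.31% lower with it. Leaving out 1 library left between 10 calls (without untreated replicate 1) and 47, with 28, 21, 21 and 17 without untreated replicates 2 and 3 and treated replicates 2 and 1, and the median stayed between 0.35 and 0.47. NDUFA1, NDUFB3, NDUFB8, NDUFV1, NDUFAF8, COX5B, COX6A1 and ATP5F1E were called with any 1 of the 6 libraries left out. In this and the other comparisons, the share of all genes called with 1 library left out was not computed. Such counts therefore do not set the members apart from other genes.

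In complex I, which takes electrons from NADH, 14 of 30 accessory subunits, 4 of 7 core subunits and 3 of 8 assembly factors rose in HCC1937-EV. NDUFA1, a small accessory subunit of the membrane arm, was at 20.1, 37.3 and 31.5 CPM at 0 h and 98.3, 94.9 and 79.8 CPM at 24 h, a log2 fold change of 1.62 ± 0.28 (SE, edgeR adjusted p = 0.00253). NDUFA2, an accessory subunit of the matrix arm, was at 20.7, 28.4 and 26.5 CPM and 63.8, 61.6 and 52.1 CPM, a change of 1.23 ± 0.26 (SE, edgeR adjusted p = 0.00722). In both genes every treated library exceeded every untreated one. NDUFA1 shares 44.5% of its exonic bases with RNF113A on the opposite strand, and whether counting used strand is not stated.

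The core subunits of complex I hold the flavin and the iron-sulfur clusters. NDUFV1, which binds NADH and the flavin, was at 113, 129.9 and 121 CPM at 0 h and 218, 206 and 183 CPM at 24 h, a log2 fold change of 0.74 ± 0.15 (SE, edgeR adjusted p = 0.00629). NDUFS7, which holds the last cluster of the chain, rose by 0.74 ± 0.21 (SE, edgeR adjusted p = 0.0270) and NDUFS8 by 0.46 ± 0.15 (adjusted p = 0.0481). NDUFS1, the largest core subunit, was at 115, 118 and 112 CPM and 123, 126 and 116 CPM, with a log2 difference of 0.08 ± 0.08 (SE, edgeR adjusted p = 0.506).
The ranges of NDUFS1 overlapped, and so did those of NDUFS3 (0.01 ± 0.36), which holds no cluster, and of NDUFV2 (-0.53 ± 0.50), which rests on few counts. NDUFAB1, the mitochondrial acyl carrier protein that is also a subunit of complex I, had a log2 difference of -0.01 ± 0.12 (SE, edgeR adjusted p = 1.0). Among assembly factors, NDUFAF8 was at 58.5, 57.6 and 60.1 CPM and 123, 100.3 and 82.4 CPM, a rise of 0.80 ± 0.15 (SE, edgeR adjusted p = 0.00422), and NDUFAF1 and NDUFAF3 rose by 0.75 and 0.46. NDUFAF4, NDUFAF5, NDUFAF6 and NDUFAF7 had log2 differences between -0.24 and -0.07 and none was called.

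In complex II, succinate dehydrogenase, the catalytic flavoprotein SDHA and the membrane anchor SDHC rose in HCC1937-EV, and the iron-sulfur subunit SDHB and the other anchor SDHD were not called. SDHA was at 51.4, 59.8 and 56.4 CPM at 0 h and 77.0, 71.0 and 66.3 CPM at 24 h, a log2 fold change of 0.35 ± 0.11 (SE, edgeR adjusted p = 0.0368). SDHC was at 100.3, 105 and 106 CPM and 135, 128 and 121 CPM (log2 difference 0.30 ± 0.09 SE, edgeR adjusted p = 0.0365). In both, the treated libraries lay above the untreated ones, though by small steps. SDHB was at 96.7, 96.8 and 99.7 CPM and 108, 89.5 and 94.6 CPM, overlapping ranges with a log2 difference of -0.01 ± 0.10 (SE, edgeR adjusted p = 1.0), and SDHD had 0.34 ± 0.12 (SE, edgeR adjusted p = 0.0710). SDHAF1, which protects the iron-sulfur subunit during assembly, rose by 0.68 ± 0.17 (SE, edgeR adjusted p = 0.0159), and SDHAF2, which helps attach the flavin to SDHA, by 0.53 ± 0.15 (adjusted p = 0.0267).

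In complex III, which passes electrons from ubiquinol to cytochrome c, 5 of the 8 subunits rose. UQCR10, a small subunit, was at 18.1, 21.2 and 17.6 CPM at 0 h and 56.0, 43.7 and 36.6 CPM at 24 h in HCC1937-EV, a log2 fold change of 1.26 ± 0.28 (SE, edgeR adjusted p = 0.00846). UQCRH, the acidic hinge protein that sits near the cytochrome c docking site, was at 163, 251 and 241 CPM and 373, 356 and 318 CPM (log2 difference 0.67 ± 0.15 SE, edgeR adjusted p = 0.00885). All treated libraries of both genes exceeded the untreated ones. UQCRQ and UQCRB rose by 0.67 and 0.49, and the core protein UQCRC1 by 0.38 ± 0.12 (SE, edgeR adjusted p = 0.0422). The other core protein UQCRC2 and the Rieske iron-sulfur protein UQCRFS1 were not called, with log2 differences of -0.13 ± 0.19 (SE, edgeR adjusted p = 0.691) and 0.09 ± 0.11 (SE, edgeR adjusted p = 0.610). Both had overlapping ranges, at 133, 97.8 and 117 CPM and 106, 111 and 100.5 CPM for UQCRC2.

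In complex IV, cytochrome c oxidase, 8 of the 11 nuclear subunits rose. COX6A1, a small subunit on the intermembrane side, was at 19.7, 33.7 and 29.8 CPM at 0 h and 107, 86.8 and 70.9 CPM at 24 h in HCC1937-EV, a log2 fold change of 1.67 ± 0.31 (SE, edgeR adjusted p = 0.00318). COX8A, the smallest subunit, was at 24.1, 32.6 and 32.6 CPM and 96.2, 80.2 and 76.8 CPM (log2 difference 1.5 ± 0.32 SE, edgeR adjusted p = 0.00649). In both genes the lowest treated library exceeded the highest untreated one over 2 times. COX5B, a subunit on the matrix side, rose by 0.77 ± 0.14 (SE, edgeR adjusted p = 0.00299), COX4I1, a regulatory subunit, by 0.51 ± 0.14 (adjusted p = 0.0225), COX5A by 0.61, COX6B1 by 0.61, COX7A2 by 0.57 and NDUFA4 by 0.52. COX6C, COX7B and COX7C were not called, with 0.35, 0.00 and 0.34. COX8A and COX6A1 share 34.5% and 13% of their exonic bases with other annotated genes on the same strand.

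In complex V, all 17 subunits tested and ATP5IF1 had log2 fold changes above 0 in HCC1937-EV, and 9 subunits passed the test. ATP5ME, the e subunit of the membrane part, was at 2.98, 5.62 and 5.0 CPM at 0 h and 18.7, 17 and 12.9 CPM at 24 h, a log2 fold change of 1.83 ± 0.45 (SE, edgeR adjusted p = 0.0140). ATP5MG, the g subunit, was at 18.6, 12.2 and 15.2 CPM and 38.3, 25.4 and 22.6 CPM (log2 difference 0.91 ± 0.25 SE, edgeR adjusted p = 0.0213). In both genes the treated libraries lay above the untreated ones, and ATP5ME shares 61.6% of its exonic bases with MYL5 on the opposite strand.

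Of the 5 subunits of the catalytic head and central stalk of ATP synthase, 3 passed the test. The alpha subunit ATP5F1A was at 501, 497 and 509 CPM and 667, 655 and 568 CPM (log2 difference 0.33 ± 0.10 SE, edgeR adjusted p = 0.0395), and the catalytic beta subunit ATP5F1B was at 1663, 1795 and 1753 CPM and 2066, 2048 and 1900 CPM (log2 difference 0.21 ± 0.08 SE, edgeR adjusted p = 0.103). ATP5F1A passed the test and ATP5F1B did not, although the treated libraries of both lay above the untreated ones. In the central stalk, delta (ATP5F1D) and epsilon (ATP5F1E) rose by 0.75 and 0.65 and gamma (ATP5F1C) had 0.17 ± 0.10 (SE, edgeR adjusted p = 0.270). The c ring, which turns as protons pass, is built from 1 mature protein that 3 genes encode. Of these ATP5MC1 and ATP5MC3 rose by 0.54 ± 0.16 and 0.77 ± 0.17 (SE, edgeR adjusted p = 0.0326 and 0.00895), and ATP5MC2 had 0.25 ± 0.12 (SE, edgeR adjusted p = 0.147). ATP5IF1, the inhibitor of ATP hydrolysis, spread from 2.36 to 46.5 CPM among the 3 libraries at 24 h and was at 2.48, 16.6 and 18.4 CPM at 0 h, so no change could be read.

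**Figure D2:**
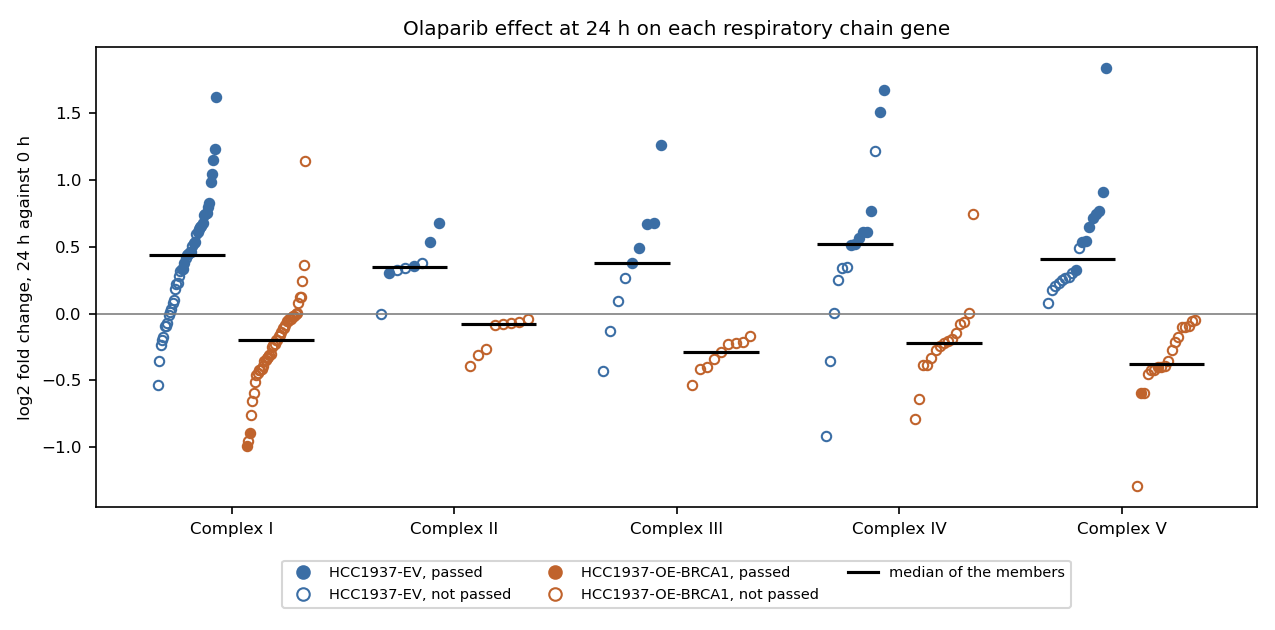
Log2 fold change at 24 h against 0 h (linear axis) of each member tested, by complex, in HCC1937-EV (blue) and HCC1937-OE-BRCA1 (orange). Filled points passed an adjusted p of 0.05, open points did not, and black lines mark the medians, which run from 0.35 to 0.52 in HCC1937-EV and from -0.37 to -0.08 in HCC1937-OE-BRCA1.

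At 12 h in HCC1937-EV, 0 of the 95 members passed edgeR's test, where 0.0273% of all genes were called higher and 0.0164% lower. An unadjusted p under 0.05 was reached by 51 members, and 85 had a log2 fold change above 0, with a median of 0.34. Of all 18335 genes tested, 2963 reached that unadjusted p and 8829 were above 0, with a median of 0. DESeq2's Wald test called 6 members. Complex medians lay between 0.20 (complex V) and 0.37 (complex II). In COX6A1 the libraries were at 19.7, 33.7 and 29.8 CPM at 0 h and 37.5, 70.1 and 99.1 CPM at 12 h, a log2 difference of 1.31 ± 0.31 (SE, edgeR adjusted p = 0.142). The 12 h libraries differed among themselves, with the median member in replicate 3 at 0.46 above the untreated mean and at 0.22 in replicates 1 and 2. Replicate 3 also had the rho of 0.666 with GC content, and 10 members were called without replicate 1. Fold changes followed GC content (rho 0.417 over 12295 genes) and ran against length (rho -0.409). With the correction for both, 1 member was called higher, where 0.36% of all genes were called higher and 0.415% lower.

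In HCC1937-OE-BRCA1, 4 of the 95 members fell and 0 rose after 24 h, where 3.55% of all genes were called lower and 4.71% higher. The number of members that fell was thus close to what the share of all genes would give. The median member had a log2 fold change of -0.23, against 0.02 for all genes, and 9 were above 0. NDUFAF8, an assembly factor of complex I, was at 52.0, 74.0 and 55.9 CPM at 0 h and 31.5, 33.2 and 26.7 CPM at 24 h, a fall with a log2 fold change of -0.99 ± 0.16 (SE, edgeR adjusted p = 0.000376). NDUFS6, a zinc-binding accessory subunit, was at 104, 230.4 and 195 CPM and 103, 104 and 79.5 CPM (log2 difference -0.89 ± 0.25 SE, edgeR adjusted p = 0.0296). All treated libraries of both genes lay below the untreated ones, by a narrow gap for NDUFS6.
Both other members that fell encode the c ring. ATP5MC1 was at 53.1, 89.5 and 79.3 CPM and 50.1, 48.7 and 48.1 CPM (log2 difference -0.59 ± 0.16 SE, edgeR adjusted p = 0.0291). ATP5MC2 was at 59.1, 81.8 and 76.9 CPM and 56.3, 53.2 and 55.3 CPM (log2 difference -0.40 ± 0.12 SE, edgeR adjusted p = 0.0430). The treated libraries did not overlap the untreated ones in either. The untreated libraries of this line were uneven, with the median member at -0.20, 0.27 and -0.04 around their mean in replicates 1 to 3. Without untreated replicate 1, 29 members were called at 24 h, and without any other 1 of the 6 libraries 1 was called. NDUFAF8 was the only 1 of the 4 that was called in every one of these fits. Fold changes followed GC content in the other direction here, with rho -0.376 over 12295 genes, and with the correction 10 members were lower and 2 higher. Of all genes, 7.07% were called lower and 8.57% higher with it. The epithelial markers summed to 7909 to 10267 CPM at 0 h and 6299 to 6966 CPM at 24 h, without overlap (4 of 7 called lower), and their part in the result was not tested.

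At 12 h in HCC1937-OE-BRCA1, 0 of the 95 members passed edgeR's test, where 1.70% of all genes were called higher and 0.605% lower. An unadjusted p under 0.05 was reached by 4 members, against 2137 of all 18335 genes tested. DESeq2's Wald test called 1 member, as did edgeR's test with the correction for GC content and length. With that correction 3.1% of all genes were called higher and 3.15% lower. The median log2 fold change of the members was -0.09, with complex medians from -0.12 to -0.05. ATP5IF1 was at 7.57, 11.2 and 24.4 CPM at 0 h and 2.07, 0.484 and 2.61 CPM at 12 h, a log2 difference of -3.07 ± 0.95 (SE, edgeR adjusted p = 0.114). Its 12 h libraries lay below the untreated ones, but the gene spread widely within conditions throughout, and at 24 h it stood at 12.2, 10.7 and 9.26 CPM.

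**Figure D3:**
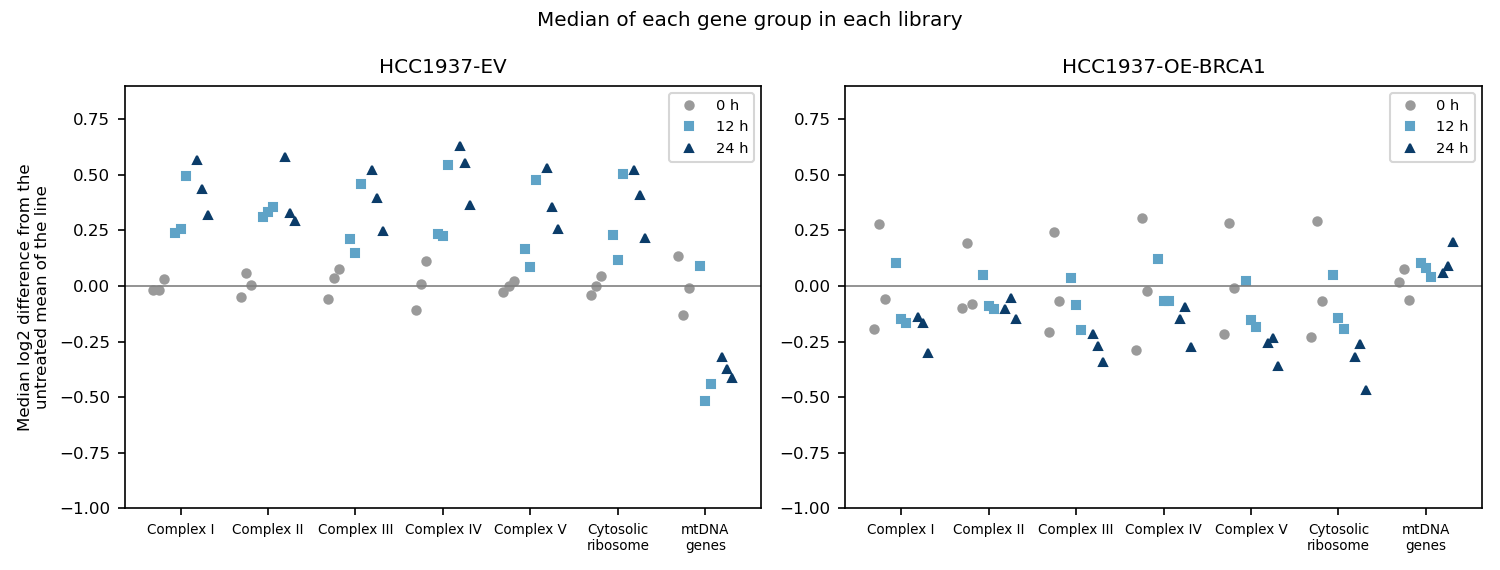
Median log2 difference from the mean of the 3 untreated libraries of the same line, over the members of each complex, over cytosolic ribosomal protein genes and over the 13 protein genes of mitochondrial DNA. Each point is 1 library, and the 3 untreated libraries of HCC1937-OE-BRCA1 spread from -0.20 to 0.28 in complex I while those of HCC1937-EV lie between -0.02 and 0.03.

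The 24 h effect was lower in HCC1937-OE-BRCA1 than in HCC1937-EV for 51 of the 95 members and higher for 0, by the interaction term of edgeR's fit. Of all genes tested, 11.2% were lower and 8.16% higher in this comparison. The median difference was -0.65 on the log2 scale, against 0.05 for all genes. Of 84 cytosolic ribosomal protein genes, 56 were lower and 0 higher (median -0.75). Of 77 mitochondrial ribosomal protein genes, 29 were lower and 0 higher (median -0.44). The members were therefore not alone in this difference. The members called were 25 of 45 in complex I, 2 of 8 in complex II, 5 of 9 in complex III, 8 of 15 in complex IV and 11 of 18 in complex V. With the correction for GC content and length, 53 were called, 43 of them also called without it, with a median of -0.56. Of all genes, 9.07% were called lower and 9.29% higher with it. With 1 library left out, between 30 (without untreated HCC1937-OE-BRCA1 replicate 2) and 60 (without its replicate 1) were called, and 30 of the 51 were called in each of the 12 fits. This comparison uses the same libraries as those within each line and is not a second piece of evidence on them.

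The members with the greatest differences in each complex were as follows. In HCC1937-OE-BRCA1, NDUFA1 of complex I stood at 16.1, 31.4 and 26.1 CPM at 0 h and 16.6, 16.8 and 13.2 CPM at 24 h, overlapping ranges, and its 24 h effect of -0.66 ± 0.29 (SE), set against 1.62 ± 0.28 in HCC1937-EV, gave a difference of -2.27 ± 0.41 (SE, edgeR adjusted p = 0.00144). For NDUFA2 the difference was -1.83 ± 0.37 (SE, edgeR adjusted p = 0.00309), and for NDUFAF8 it was -1.79 ± 0.22 (SE, edgeR adjusted p = 6.51e-05). NDUFAF8 was the one member called at 12 h as well, with a difference of -1.15 ± 0.22 (SE, edgeR adjusted p = 0.0136), in a comparison where 0.142% of all genes were lower and 0.376% higher. That call was lost without untreated replicate 2 or 12 h replicate 2 or 3 of HCC1937-OE-BRCA1. The count of members ran from 0 to 13 (without untreated replicate 1 of that line) with 1 library left out. It was 23 without the filter on low counts, where the share of all genes was not computed. It was 3 with the correction for GC content and length, where 1.76% of all genes were called lower and 1.55% higher.
The 12 h libraries of NDUFAF8 were at 87.1, 78.8 and 104 CPM in HCC1937-EV, above its untreated ones, and at 49.2, 37.5 and 38.9 CPM in HCC1937-OE-BRCA1, below its untreated ones. In complex II the assembly factors SDHAF1 and SDHAF3, which both act on the iron-sulfur subunit, differed by -0.94 ± 0.24 and -0.71 ± 0.23 (SE, edgeR adjusted p = 0.0112 and 0.0368), and none of SDHA to SDHD was called. In complex III, UQCR10 and UQCRQ differed by -1.79 ± 0.39 and -1.06 ± 0.23 (adjusted p = 0.00472 and 0.00458).
In complex IV of HCC1937-OE-BRCA1, COX6A1 was at 23.2, 59.9 and 49.8 CPM at 0 h and 32.7, 29.3 and 23.4 CPM at 24 h, and its effects differed between the lines by -2.31 ± 0.43 (SE, edgeR adjusted p = 0.00192). COX8A was at 67.6, 177 and 176 CPM and 93.6, 76.9 and 72.6 CPM, and its difference was -2.29 ± 0.44 (SE, edgeR adjusted p = 0.00210). The untreated and treated libraries of HCC1937-OE-BRCA1 overlapped in both genes, with untreated replicate 1 far below replicates 2 and 3. In complex V the differences of ATP5ME and ATP5MG were -3.12 ± 0.65 and -1.5 ± 0.35 (SE, edgeR adjusted p = 0.00355 and 0.00610), and all 3 genes of the c ring and 4 of 5 of the catalytic head and central stalk were called.

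Between the untreated lines, 29 members were higher in HCC1937-OE-BRCA1 and 24 lower, where 39.4% of all genes tested were higher and 33.3% lower. The lines therefore differed in most genes, and the members' counts, 30.5% and 25.3% of 95, were below those shares. The split was uneven over the complexes, with 15 higher and 9 lower in complex I, 5 and 1 in complex II, 1 and 1 in complex III, 7 and 3 in complex IV, and 1 and 10 in complex V. Medians were 0.05, 0.58, 0.12, 0.62 and -0.32, against 0.11 over all genes. Of the 53 calls, 47 held with any 1 of the 6 libraries left out. The correction for GC content and length was fitted to each library's departure from its own line's average. It therefore does not remove such a trend between the lines (rho 0.211 with GC content over 12295 genes). With it 51 of the 53 calls held, and 29 members were higher and 31 lower, where 40.9% of all genes were higher and 35.4% lower. Complex I then had 16 higher and 13 lower (median -0.02) and complex V 1 and 10.

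Complex V was the complex with most members lower in HCC1937-OE-BRCA1. Other gene groups were lower there too. Of 84 cytosolic ribosomal protein genes, 39 were lower and 12 higher (median -0.35). Of 77 mitochondrial ribosomal protein genes, 36 were lower and 19 higher (median -0.27). Of 21 genes of the citric acid cycle and the outer membrane, 12 were lower and 2 higher (median -0.40). Of the 13 protein genes of mitochondrial DNA, 8 were lower and 1 higher (median -0.62). Of 55 further genes of the complexes that lack the prefixes, 26 were lower and 11 higher (median -0.29). The beta subunit ATP5F1B was at 1663, 1795 and 1753 CPM in HCC1937-EV and 695, 839 and 759 CPM in HCC1937-OE-BRCA1, a log2 difference of -1.18 ± 0.09 (SE, edgeR adjusted p = 7.69e-11). The alpha subunit ATP5F1A was at 501, 497 and 509 CPM and 197, 259 and 224 CPM (log2 difference -1.15 ± 0.10 SE, edgeR adjusted p = 2.86e-09). ATP5MC2 of the c ring was at 233, 233 and 243 CPM and 59.1, 81.8 and 76.9 CPM (log2 difference -1.70 ± 0.12 SE, edgeR adjusted p = 5.48e-11).
The lines did not overlap in any of these. ATP5MK, a small subunit that helps dimers of the enzyme to form, differed by -1.39 ± 0.15 (SE, edgeR adjusted p = 2.71e-08), and ATP5MC1, ATP5F1D, ATP5MJ, ATP5PF, ATP5PD and ATP5PB were also lower, with log2 differences of -0.73, -0.85, -0.83, -0.75, -0.39 and -0.25. ATP5F1C of the central stalk stood at 139, 134 and 133 CPM and 134, 157 and 119 CPM, with a log2 difference of 0.01 ± 0.10 (SE, edgeR adjusted p = 0.928). ATP5MG was the exception that was higher, at 20.9, 46.8 and 32.7 CPM against 18.6, 12.2 and 15.2 CPM (log2 difference 1.13 ± 0.25 SE, edgeR adjusted p = 0.000368).
At the later times 15 of the 18 members of complex V tested were lower in HCC1937-OE-BRCA1 and 0 higher, both at 12 h, where 34.1% of all genes were lower, and at 24 h, where 34% were. The medians were -0.93 at 12 h and -1.22 at 24 h. Of the 84 cytosolic ribosomal protein genes, 60 were lower and 4 higher at 12 h (median -0.84). At 24 h 71 of them were lower and 0 higher (median -1.18), so complex V was not alone in this. Counts among all 95 members at those times were 13 higher and 45 lower (38.8% of all genes higher at 12 h) and 9 higher and 50 lower (39.9% higher at 24 h).

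Complex IV held genes that differed in opposite directions. COX8A was at 24.1, 32.6 and 32.6 CPM in HCC1937-EV and 67.6, 177 and 176 CPM in HCC1937-OE-BRCA1, a log2 difference of 2.23 ± 0.32 (SE, edgeR adjusted p = 2.41e-06). COX7C, a small membrane subunit, was at 203, 226 and 244 CPM and 58.2, 85.8 and 75.3 CPM (log2 difference -1.62 ± 0.14 SE, edgeR adjusted p = 1.09e-09). COX7B, another one, was at 173, 184 and 201 CPM and 74.1, 83.3 and 62.8 CPM (log2 difference -1.34 ± 0.14 SE, edgeR adjusted p = 1.87e-08).
None of the 3 genes overlapped between the lines. COX4I1, COX6B1 and COX6C were higher, by 0.66, 0.62 and 0.67, and COX7A2L, which takes part in joining complexes III and IV, was lower, with a log2 difference of -0.50 ± 0.12 (SE, edgeR adjusted p = 0.00105). In complex II, SDHA was at 51.4, 59.8 and 56.4 CPM in HCC1937-EV and 23.2, 28.0 and 25.1 CPM in HCC1937-OE-BRCA1 (log2 difference -1.13 ± 0.11 SE, edgeR adjusted p = 1.13e-08), whereas its partners SDHC and SDHD were higher, by 0.50 and 0.79. SDHB, at 96.7, 96.8 and 99.7 CPM and 91.5, 101 and 80.9 CPM, overlapped. SDHAF4, which binds SDHA during assembly, was higher by 1.28 ± 0.19 (SE, edgeR adjusted p = 3.1e-06).
In complex I, NDUFC1 and NDUFB3, small subunits of the membrane arm, were higher by 1.5 and 1.34. NDUFC1 was at 19.5, 21.2 and 20.5 CPM and 45.7, 73.3 and 54.5 CPM. The core subunits NDUFV1 and NDUFS8 were higher by 1.12 ± 0.15 and 1.12 ± 0.15 (SE, edgeR adjusted p = 1.32e-06 and 1.16e-06), and the other 5 were not called. The lowest members were assembly factors, NDUFAF7 at 33.5, 28.3 and 31.9 CPM and 12.1, 11.3 and 8.94 CPM (log2 difference -1.53 ± 0.14 SE, edgeR adjusted p = 2.26e-09), and NDUFAF2 (log2 difference -1.42 ± 0.17 SE, edgeR adjusted p = 2.17e-07). Neither overlapped between the lines. In complex III, UQCR11 was lower, with -1.07 ± 0.18 (SE, edgeR adjusted p = 1.49e-05), and UQCRB higher by 0.69 ± 0.14 (SE, edgeR adjusted p = 0.000133).

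**Figure D4:**
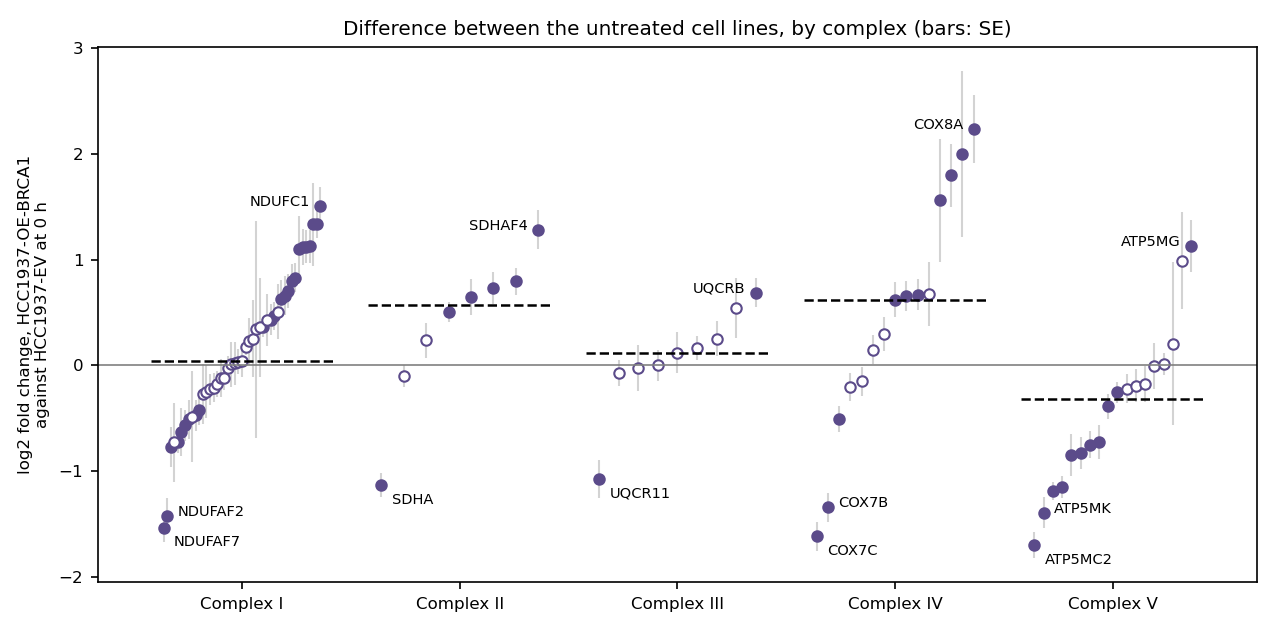
Difference between the untreated lines (HCC1937-OE-BRCA1 over HCC1937-EV, log2, linear axis) for each member tested, with bars of 1 SE. Filled points passed an adjusted p of 0.05, open points did not, dashed lines mark the medians, and points of complex V lie mostly below 0, down to -1.70 for ATP5MC2.

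Some subunits of complex IV have isoforms used in muscle, testis or low oxygen. Per length, COX6B1 was at 152 RPKM over the 18 libraries and its testis isoform COX6B2 at 0.158 RPKM, COX7A2 at 67.0 and its muscle isoform COX7A1 at 0.314 RPKM, COX8A at 177 and COX8C at 0.0134 RPKM, and NDUFA4 at 38.8 and its hypoxia-linked relative NDUFA4L2 at 0.711 RPKM. The common form was therefore the one read in these cells in each pair. The 3 minor forms tested were all higher in untreated HCC1937-OE-BRCA1, NDUFA4L2 at 2.96, 4.07 and 3.34 CPM against 1.06, 0.556 and 1.36 CPM (log2 difference 1.79 ± 0.30 SE, edgeR adjusted p = 1.57e-05), COX7A1 by 2.0 and COX6B2 by 1.56, the last 2 at 1.05 CPM or less in all of these 6 libraries.

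**Figure D5:**
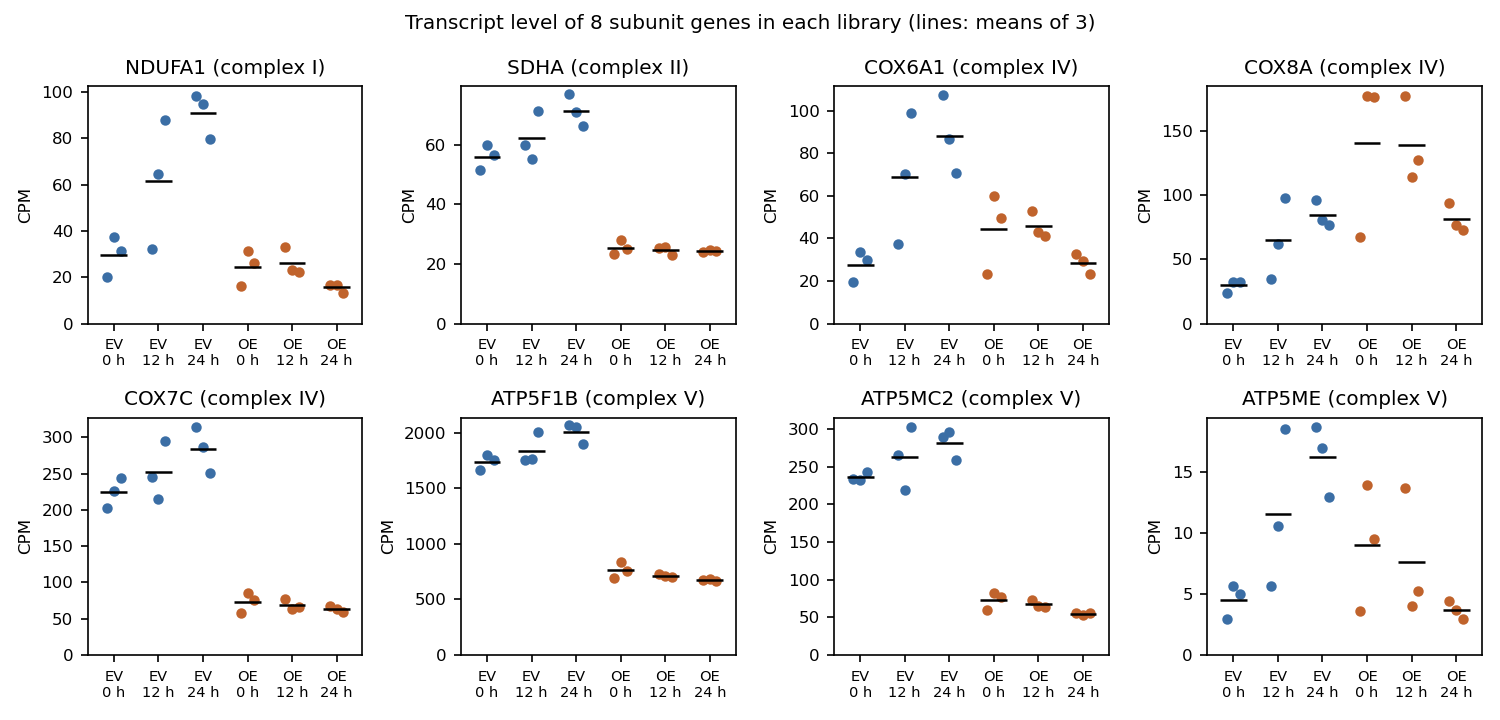
Level (CPM, linear axes from 0) of 8 subunit genes in each of the 18 libraries, with lines at the means of 3. NDUFA1, COX6A1, COX8A and ATP5ME stand higher at 24 h in HCC1937-EV, and SDHA, COX7C, ATP5F1B and ATP5MC2 stand lower in all HCC1937-OE-BRCA1 libraries, at 695 to 839 CPM for ATP5F1B at 0 h against 1663 to 1795 CPM.

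Other gene groups were read beside the members in HCC1937-EV at 24 h, where 8.62% of all genes were called higher and 5.12% lower. Of 84 cytosolic ribosomal protein genes, 40 rose and 0 fell, with a median of 0.37, so the members were not alone in their direction. Of 77 mitochondrial ribosomal protein genes 19 rose and 3 fell (median 0.20), and of 21 genes of the citric acid cycle and the outer membrane 2 rose and 0 fell (median 0.12). Among 55 further genes of the complexes that lack the prefixes, mostly assembly factors, 10 rose and 0 fell. They included CYC1, the cytochrome c1 subunit of complex III, at 307, 345 and 341 CPM and 531, 508 and 461 CPM (log2 difference 0.60 ± 0.18 SE, edgeR adjusted p = 0.0310). In HCC1937-OE-BRCA1 at 24 h 12 of the 84 cytosolic ribosomal protein genes fell and 0 rose, where 3.55% of all genes were called lower and 4.71% higher.

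The 13 protein genes that mitochondrial DNA encodes did not rise with the members. In HCC1937-EV at 24 h 5 of them fell and 0 rose, with a median of -0.38, where 5.12% of all genes were called lower. MT-CO1, the catalytic subunit of complex IV, was at 25768, 21031 and 23790 CPM at 0 h and 16711, 16790 and 16963 CPM at 24 h (log2 difference -0.48 ± 0.11 SE, edgeR adjusted p = 0.0110), and MT-ND4 of complex I fell by 0.40 ± 0.11 (SE, edgeR adjusted p = 0.0212). MT-ND2, MT-ND4L and MT-CYB fell too, and neither gene of complex V was called, MT-ATP6 having -0.28 ± 0.12 (SE, edgeR adjusted p = 0.110). In HCC1937-OE-BRCA1 0 of the 13 were called at 24 h by edgeR's test, with 2 at an unadjusted p under 0.05 and a median of 0.08. Of all 18335 genes tested, 4336 reached that unadjusted p there. The 24 h effects of 7 of the 13 differed between the lines, all higher in HCC1937-OE-BRCA1, among them all 3 of complex IV. In that comparison 8.16% of all genes were higher.

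Of 12 genes that regulate the respiratory chain, 1 rose and 2 fell in HCC1937-EV at 24 h, where 8.62% of all genes were called higher and 5.12% lower. Counts this small do not set the list apart from all genes, and the values of single genes are given as a description. ESRRA, a nuclear receptor active on mitochondrial genes, was at 54.9, 71.0 and 59.7 CPM and 102, 99.0 and 96.0 CPM (log2 difference 0.68 ± 0.17 SE, edgeR adjusted p = 0.0147). GABPA fell, with a log2 fold change of -0.55 ± 0.18 (SE, edgeR adjusted p = 0.0468), and so did the coactivator PPRC1 (log2 difference -0.34 ± 0.08 SE, edgeR adjusted p = 0.0147). NRF1 and YY1 were not called, with -0.11 ± 0.10 (SE, edgeR adjusted p = 0.519) and -0.10 ± 0.08 (SE, edgeR adjusted p = 0.418). In HCC1937-OE-BRCA1 at 24 h 1 of the 12 fell and 0 rose, where 3.55% of all genes were called lower and 4.71% higher. The 1 was ESRRA (log2 difference -0.59 ± 0.17 SE, edgeR adjusted p = 0.0337). Between the untreated lines 7 of the 12 were lower in HCC1937-OE-BRCA1 and 2 higher, where 33.3% of all genes were lower and 39.4% higher. The coactivator PPARGC1A, at 32.8, 31.2 and 32.6 CPM in untreated HCC1937-EV, had no count in any HCC1937-OE-BRCA1 library. Members with letters of 1 or more of the 3 promoter motifs (45 tested) had a median of 0.38 for the log2 fold change at 24 h in HCC1937-EV, and those without (33 tested) had 0.45, given as a description.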

How the data were processed

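RNA-seq of 18 libraries that the labels call HCC1937, 3 in each of 6 conditions, was analysed from the count table that the authors deposited. The submitters' processing notes name HISAT2, featureCounts, DESeq2 and the builds GRCh38 and hg38, and versions, annotation release and strand setting were not given in the sources used here. The deposited values are raw counts of reads per gene for 35044 genes, and the 18 files of single libraries were equal to their columns.

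Genes were kept by edgeR's filterByExpr (minimum count 10), which left 18335, and tested with edgeR 4.0.16 (R 4.3.3, TMM, quasi-likelihood test, Benjamini-Hochberg adjustment over all genes tested, called at an adjusted p under 0.05) in 1 fit with a mean per condition (biological coefficient of variation 12.9%). The difference of effects was tested as an interaction term. CPM and RPKM were computed from TMM-scaled library sizes and exonic length. The fit was tested on simulated data. Replicates differed by more than counting error in every condition. With 3 against 3 libraries an exact permutation test of 1 value cannot go below p = 0.1. Libraries held 15081973 to 17571922 counts.

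Named genes were those of fixed roles (core subunits, isoform pairs, head and c ring of ATP synthase) and, per complex and comparison, up to 2 called members with the highest and 2 with the lowest change. Others named were chosen after their values were seen. The single values of 1 member are not reported here. The members and lists were chosen with earlier results of these data known. Alternatives were DESeq2 1.42.0 (size factors, Wald test), no filter, a fold minimum of 0.5 (log2) and the compared conditions alone. Others were a correction for GC content and length (mgcv 1.9.3), a block by replicate number, and leaving out each library. The correction was fitted to each library's departure from its own line's average, so it does not adjust the lines to each other.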

Additional observations from a re-analysis of the deposited data

Results flagged for a closer look

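The effects of olaparib differed between HCC1937-EV and HCC1937-OE-BRCA1 by the interaction term of edgeR's fit for 51 members at 24 h and for 1 at 12 h, all lower in HCC1937-OE-BRCA1. Among those named, the log2 difference at 24 h was -2.27 for NDUFA1, -1.83 for NDUFA2, -0.94 for SDHAF1 and -0.71 for SDHAF3. It was -1.79 for UQCR10, -1.06 for UQCRQ, -2.31 for COX6A1 and -2.29 for COX8A. In complex V it was -3.12 for ATP5ME and -1.50 for ATP5MG. At 12 h it was -1.15 for NDUFAF8, which lost the call when some single libraries were left out. Of 84 cytosolic ribosomal protein genes, 56 were lower and 0 higher in the comparison at 24 h, so the members were not alone.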

How the results depend on the processing

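Over 9 other settings, members called were 37 to 60 in HCC1937-EV at 24 h (47 as reported), 46 to 61 between the untreated lines (53) and 48 to 60 for the difference of the 24 h effects (51), all within 1.5 times. Small counts moved more. Without the filter on low counts, 31 members were called in HCC1937-EV at 12 h, 3 and 30 in HCC1937-OE-BRCA1 at 12 h and 24 h, and 23 for the difference of the 12 h effects. With the correction for GC content and length these were 1, 1, 12 and 3, and with that correction and the replicate block 1, 2, 8 and 4. In the same order, the correction alone called 0.36%, 3.1%, 8.57% and 1.55% of all genes higher. It called 0.415%, 3.15%, 7.07% and 1.76% of them lower. For the remaining settings that share was not computed, so the rise without the filter does not set the members apart. DESeq2's Wald test called 6 and 1 at 12 h in the 2 lines and 2 for the 12 h difference, and the conditions of HCC1937-OE-BRCA1 compared alone gave 1 at 12 h. NDUFAF8 between the untreated lines, 0.05 and not called, turned to -0.28 with the GC and length correction and to -0.28 with the block added.

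Leaving out 1 library gave 0 to 10 calls in HCC1937-EV at 12 h, 10 to 47 at 24 h, 0 to 1 and 1 to 29 in HCC1937-OE-BRCA1 at 12 h and 24 h, 50 to 58 between the untreated lines, and 0 to 13 and 30 to 60 for the differences at 12 h and 24 h. The 13 arose without untreated HCC1937-OE-BRCA1 replicate 1. The share of all genes called in these fits was not computed, so whether the members moved apart from other genes cannot be read. The remaining arms of 2 libraries share the spread of all conditions. Deviations of libraries with the same replicate number had correlations of -0.227 to 0.295, over 0.1 in 5 of 45 pairs. Among pairs with other numbers, 14 of 90 were over 0.1. No pairing by number was seen, but this check cannot exclude that the numbers mark libraries made together. A replicate block gave 42 calls in HCC1937-EV at 24 h, 3 in HCC1937-OE-BRCA1, 53 between the untreated lines, 50 and 1 for the differences at 24 h and 12 h, and 0 in both lines at 12 h.

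Reads of 40 members may be split with pseudogenes, and 27 share exonic bases with a gene on the same strand. The cause of these movements was not tested.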
